A study of Mus musculus with 6 samples.

Results

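The respiratory chain and ATP synthase of the inner mitochondrial membrane were examined in muscle mesenchymal stem cells kept in medium from senescent or control macrophages. Members were taken by name: nuclear genes whose mouse symbol starts with Ndufa, Ndufb, Ndufc, Ndufs, Ndufv, Uqcr, Cox4i, Cox5, Cox6, Cox7, Cox8 or Atp5, the genes Sdha, Sdhb, Sdhc, Sdhd, Cyc1 and Cycs, and the 13 protein genes of the mitochondrial genome, without assembly factors (Ndufaf) and pseudogene symbols (-ps). This gave 100 of the 18124 listed genes, 87 nuclear and 13 mitochondrial. The symbols Cox7b2, Cox8b, Cox8c and Ndufa11b belong to the same families and were not listed, so no value is given for them. Ndufs6b, Cox6c2 and Cox7a1 were listed but had too few counts to be tested, which left 97 members tested, 84 nuclear and 13 mitochondrial. Ndufs6b, Cox6c2 and Ndufb4c are annotated as processed copies of other genes, so reads may have been split between each copy and its parent gene and their values are uncertain.

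The cells were sorted from quadriceps muscle of naive male Col1-GFP mice (n = 6), in which a collagen 1 promoter drives enhanced green fluorescent protein, as live cells positive for GFP and for the surface protein Sca-1. They were expanded to passage 4 and kept for 72 hours in conditioned medium, which was renewed daily. In the SEN-medium group the medium came from bone marrow-derived macrophages of wild type mice that had received 300 µM hydrogen peroxide for 3 hours, a repeat of that exposure 3 days later and a further 14 days of culture. In the CON-medium group it came from bone marrow-derived macrophages called control and non-senescent. Both kinds of macrophage were differentiated for 7 days with M-CSF, and each medium was gathered over 48 hours in repeated collections that were pooled. The labels do not say that the control macrophages were cultured for as long, do not give the age of the mice, and do not tie the libraries to different mice, sorts or lots of medium. Each group had 3 libraries, numbered by their titles. The p-values therefore reflect only how far these libraries spread, and that spread may be technical in origin.

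Complex I (NADH dehydrogenase) and complex II (succinate dehydrogenase) pass electrons to coenzyme Q, complex III passes them on to cytochrome c, and complex IV (cytochrome c oxidase) passes them to oxygen. Complexes I, III and IV pump protons across the inner membrane, and complex V (ATP synthase) uses the return flow to make ATP. Most subunits are encoded in the nucleus and imported, while a small number of core membrane subunits of complexes I, III, IV and V are encoded by the mitochondrial genome, which is transcribed as long RNAs from both strands and then cut into single messages. Several complex IV subunits exist as a widely expressed isoform and a second isoform that prevails in heart and skeletal muscle, in lung or in testis.

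Library totals ran from 17228162 to 21659434 estimated counts. Levels below are counts per 1000000 (CPM) scaled by edgeR's TMM factors, given for libraries 1, 2 and 3 of each group in that order, and fold changes are SEN medium over CON medium. A member was called changed at an adjusted p under 0.05 over the 14644 genes tested. All 12 stromal markers of the sorted population were listed, and their summed level was 18490 to 19011 CPM in SEN medium and 13955 to 14025 CPM in CON medium. Of the 11 tested, 7 were called higher and 3 lower, beside 24.6% higher and 24.9% lower over all genes tested. The sum does not show the markers that were lower. Of 12 macrophage markers 4 were listed, with a summed level of 14.97 to 20.07 CPM in SEN medium and 11.9 to 14.3 CPM in CON medium, and the defining genes Ptprc, Adgre1 and Itgam were not among them. Of the 3 macrophage markers tested, 1 was called higher and 1 lower. Of 14 myogenic and muscle fibre markers 4 were listed, with a summed level of 18.0 to 20.1 CPM in SEN medium and 10.1 to 11.6 CPM in CON medium, and Pax7, Myod1, Myog, Ckm and Myh1, Myh2 and Myh4 were not among them. In bulk RNA fewer cells of a type and less RNA per cell cannot be told apart.

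In SEN medium 35 of the 97 tested members were called higher (36.1%) and 14 lower (14.4%), and 48 were not called. Over all 14644 genes 24.6% were called higher and 24.9% lower, so the members were called at about the same total rate as genes in general (49.5% in either direction). Most differences were small. Cox6a2 and Ndufa4l2, both complex IV subunits, were the only called members more than 1.5-fold higher and Atp5g2 of complex V the only one more than 1.5-fold lower. These 3 are 3.09% of the tested members, while 13.7% of all tested genes were called and differed by more than 1.5-fold. The median log2 fold change was 0.11 over the 84 nuclear members and 0.21 over the 13 mitochondrial genes, beside -0.00096 over all genes tested. Of the nuclear members 28 were called higher and 11 lower, and of the mitochondrial genes 7 were called higher and 3 lower.

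By complex, nuclear members of complex IV were called higher in 10 of 16 cases and lower in 0 (median log2 fold change 0.15). For complex I the count was 12 higher and 3 lower of 37 (median 0.13), for complex II 1 higher and 1 lower of 4, for complex III 2 higher and 4 lower of 9 (median -0.051), and for complex V 3 higher and 3 lower of 17 (median -0.020). Cytochrome c itself (Cycs) was not called. The libraries of both groups did not overlap for 38 of the 84 nuclear members (45.2%) and for 9 of the 13 mitochondrial genes (69.2%), beside 55.8% of all genes tested.

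**Figure D1:**
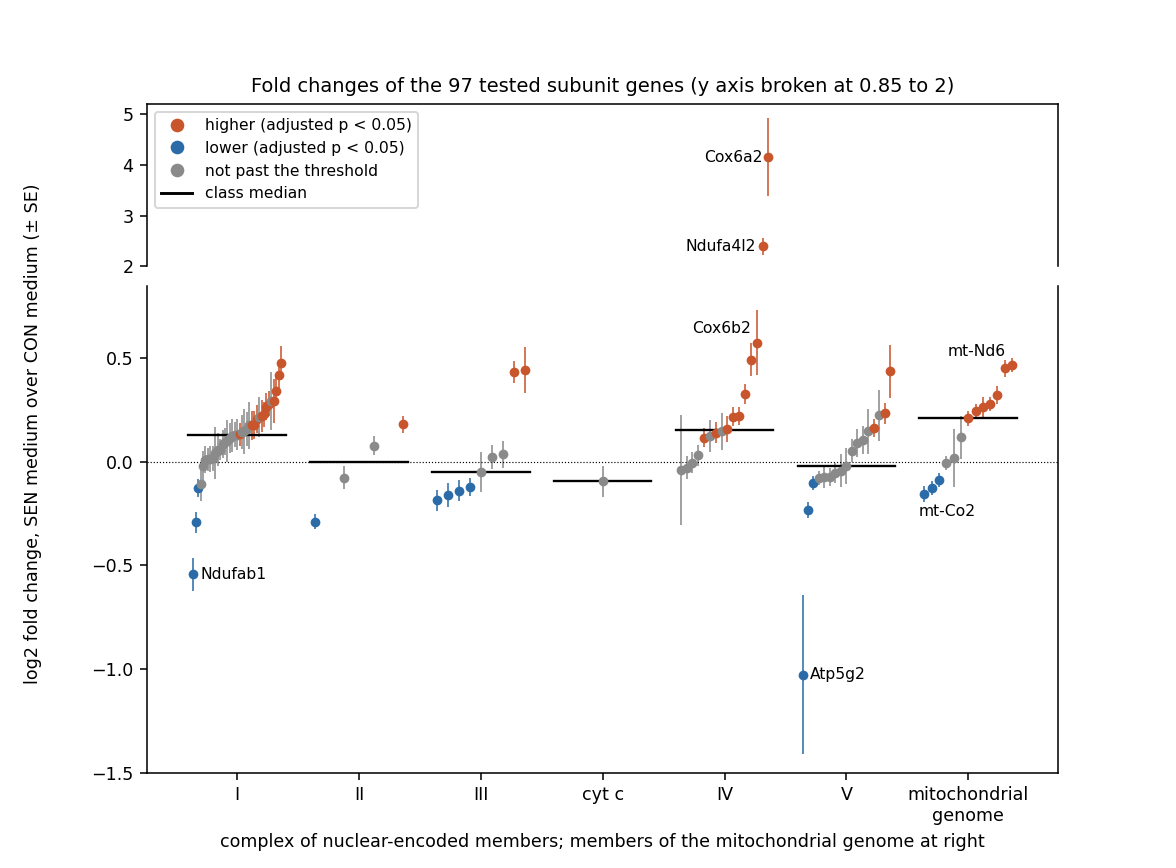
Log2 fold change of each of the 97 tested members, SEN medium over CON medium, with its standard error, for nuclear members by complex and for the mitochondrial genome; black bars are medians and the y axis is broken. Most points lie close to 0, while Cox6a2 (4.15) and Ndufa4l2 (2.40) lie far above and Atp5g2 (-1.03) below.

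CON library 1 stood apart from the other CON libraries for the nuclear members. It had the highest level of the 3 CON libraries for 74 of the 84 tested nuclear members (88.1%), beside 36.2% of all genes tested. The median deviation of the nuclear members from the mean of the 6 libraries, on the log2 scale, was 0.058, 0.022 and 0.070 in SEN libraries 1 to 3 and 0.077, -0.089 and -0.147 in CON libraries 1 to 3. CON library 1 therefore lay at the level of the SEN libraries, and only CON libraries 2 and 3 lay below them. Without CON library 1, 39 nuclear members were called higher and 7 lower, with a median log2 fold change of 0.16. Without CON library 3 the count was 21 higher and 12 lower, with a median of 0.062. Without SEN library 2 or SEN library 3, and likewise with DESeq2, 7 were called lower in place of 11. With scaling by library totals alone, which moves the median of all genes to -0.082, 18 nuclear members were called higher and 16 lower. Over all genes, that scaling gave 35.0% of calls as higher, beside 49.7% with TMM.

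The calls also differed with transcript length, most clearly the lower calls. Of 56 nuclear members with a principal transcript under 1000 bases, 21 were called higher and 1 lower (median log2 fold change 0.13), and of 28 members of 1000 bases or more, 7 were called higher and 10 lower (median -0.0057). All tested genes showed a smaller difference of the same direction, with medians of 0.062 for 2876 genes under 1000 bases and -0.016 for 11749 longer genes. Of these short genes 743 were called higher and 494 lower, and of the longer genes 2861 were called higher and 3146 lower. Across the 84 nuclear members log2 fold change and length had a Spearman rho of -0.34 and a Pearson r of -0.14, given as a description. CON library 1 lay above the other CON libraries in both length classes. Over the 56 short members the median deviations were 0.076, 0.044 and 0.090 in SEN libraries 1 to 3, against 0.078, -0.114 and -0.169 in CON libraries 1 to 3. Over the 28 longer members they were 0.0020, -0.018 and 0.027 in SEN libraries 1 to 3, against 0.069, -0.010 and -0.046 in CON libraries 1 to 3. CON library 1 thus lay among the SEN libraries for the short members and above all of them for the longer ones. With each library's trend on GC content and length removed, 20 nuclear members were called higher and 13 lower, with a median of 0.047. The part of transcript length in these calls was otherwise not tested.

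**Figure D2:**
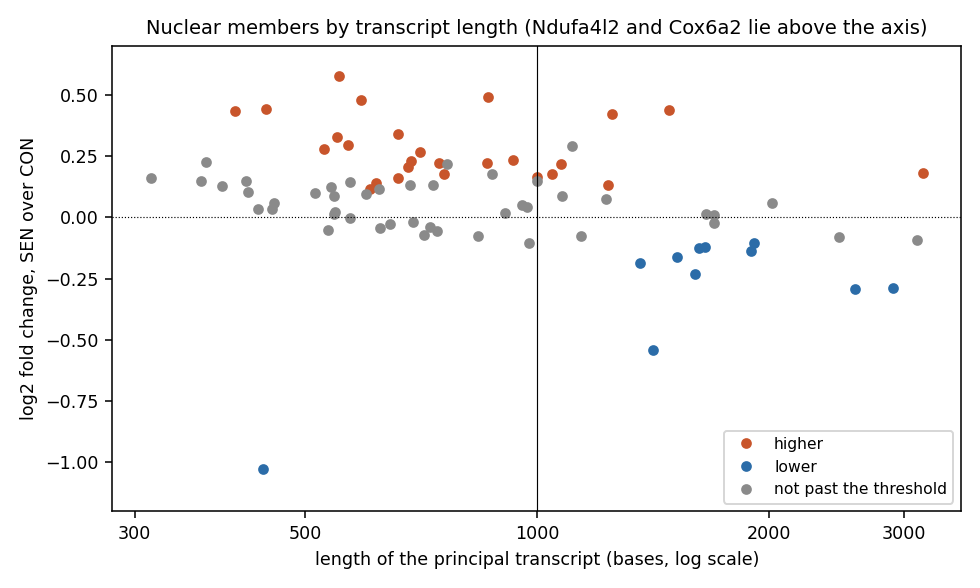
Log2 fold change of the nuclear members, SEN medium over CON medium, against the length of the principal transcript in bases on a log axis, coloured by call; Ndufa4l2 and Cox6a2 lie above the axis. Of members under 1000 bases 21 of 56 were called higher, of those at 1000 bases or more 10 of 28 were called lower, and Atp5g2 is the short member called lower.

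Promoters of the nuclear members were searched for motifs of 4 transcription factors known for nuclear genes of respiration, each on both strands, in windows from 250 bases before to 50 bases after each start site given by RefSeq for the build GRCm38.p6. Of the 87 nuclear members 66 had an entry, with 71 windows. The 10-base NRF1 motif, with any letter allowed at 1 position, was found in 25.4% of these windows and in 4.6% of all 32851 windows of the table, which include genes of every kind. The YY1 motif AAGATGGC was found in 12.7% of member windows and 2.75% of all windows, the GABP and ETS motif CCGGAAGT in 7.04% and 3.89%, and the estrogen-related receptor motif TCAAGGTCA in 2.82% and 0.423%. The NRF1 motif was present in 4 of 23 windows of members called higher (17.4%) and in 3 of 6 windows of members called lower (50%), counts too small to set against each other. A match is a description of the letters and does not show that the factor binds.

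The windows of 2 members called higher and 2 called lower are shown because they carry the NRF1 motif in both directions of change; they were chosen after their matches were known. Capitals mark the motif matches, and each sequence is written 5′ to 3′ on the strand of the gene, with GRCm38.p6 coordinates. Ndufa6 (chr15:82354242-82354541, minus strand) has 1 NRF1 match that starts 23 bases after the start site. Ndufs6 (chr13:73328433-73328732, minus strand) has an NRF1 match 16 bases before the start site and a YY1 match 33 bases after it, with no overlap between them. Sdha (chr13:74350191-74350490, minus strand) has 3 NRF1 matches, read on the opposite strand, that lie 98, 55 and 10 bases before the start site. Uqcrc1 (chr9:108936398-108936697, plus strand) has NRF1 matches 5 and 30 bases after the start site.
Ndufa6: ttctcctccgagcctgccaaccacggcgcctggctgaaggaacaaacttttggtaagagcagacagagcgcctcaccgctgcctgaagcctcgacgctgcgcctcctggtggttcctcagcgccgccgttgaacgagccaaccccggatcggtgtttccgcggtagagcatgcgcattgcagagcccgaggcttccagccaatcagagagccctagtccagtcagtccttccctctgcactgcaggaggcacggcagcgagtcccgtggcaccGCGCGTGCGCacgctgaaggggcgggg
Ndufs6: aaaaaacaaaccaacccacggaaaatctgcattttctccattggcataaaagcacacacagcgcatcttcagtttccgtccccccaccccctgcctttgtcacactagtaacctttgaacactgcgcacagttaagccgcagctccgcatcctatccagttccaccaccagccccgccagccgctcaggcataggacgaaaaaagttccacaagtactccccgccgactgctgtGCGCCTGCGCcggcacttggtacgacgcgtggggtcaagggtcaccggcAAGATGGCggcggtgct
Sdha: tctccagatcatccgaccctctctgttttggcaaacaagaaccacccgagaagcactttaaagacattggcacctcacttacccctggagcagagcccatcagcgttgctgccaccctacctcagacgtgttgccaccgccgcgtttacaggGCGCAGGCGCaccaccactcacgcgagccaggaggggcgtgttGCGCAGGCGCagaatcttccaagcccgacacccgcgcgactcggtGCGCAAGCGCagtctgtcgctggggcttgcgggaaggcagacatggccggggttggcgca
Uqcrc1: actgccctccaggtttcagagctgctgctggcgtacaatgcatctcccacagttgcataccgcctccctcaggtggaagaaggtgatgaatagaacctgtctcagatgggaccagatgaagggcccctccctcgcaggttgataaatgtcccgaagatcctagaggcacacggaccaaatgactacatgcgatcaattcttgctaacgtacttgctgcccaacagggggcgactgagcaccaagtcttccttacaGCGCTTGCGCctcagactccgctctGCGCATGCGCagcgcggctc

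In complex I, the entry point for electrons from NADH, the small accessory subunits and the catalytic core subunits had different counts. Of 29 accessory subunits 10 were called higher and 1 lower, with a median log2 fold change of 0.14, and 27 had a log2 fold change above 0. Of the 7 nuclear core subunits, which include the carriers of the flavin and of the iron-sulfur clusters, 2 were called higher (Ndufs3 and Ndufs7) and 2 lower, with a median of 0.011. The principal transcripts of the core subunits have 758 (Ndufs7) to 2590 (Ndufs1) bases. Those of the accessory subunits have 315 (Ndufc1) to 2020 (Ndufa10) bases, and role was not separated from length. Ndufa6, an accessory subunit of the matrix arm that binds the acyl carrier protein, had 25.2, 27.1 and 26.6 CPM in SEN medium, against 21.6, 16.9 and 18.3 CPM in CON medium. The groups did not overlap, and this was the highest fold change of the nuclear complex I members (log2 fold change 0.48 ± 0.082 (SE), adjusted p = 1.34e-05, edgeR). Ndufa13, also known as GRIM-19, had 43.4, 44.5 and 43.6 CPM in SEN medium, against 36.5, 30.4 and 31.6 CPM in CON medium (log2 fold change 0.42 ± 0.064 (SE), adjusted p = 2.13e-06, edgeR). Ndufb6, an accessory subunit of the membrane arm, had 31.6, 31.3 and 34.4 CPM in SEN medium, against 28.2, 25.9 and 22.7 CPM in CON medium (log2 fold change 0.34 ± 0.074 (SE), adjusted p = 2.71e-04, edgeR). All SEN libraries lay above all CON libraries for both, though exons of Tssk6 cover 30.0% of the exon bases of Ndufa13 on the opposite strand and exons of Smim27 cover 39.0% of those of Ndufb6, and reads of these pairs cannot be told apart without strand.

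Ndufab1, the mitochondrial acyl carrier protein that is both a complex I subunit and a carrier in fatty acid synthesis, was the only accessory subunit called lower. It had 18.0, 16.9 and 18.4 CPM in SEN medium, against 28.3, 25.9 and 23.6 CPM in CON medium (log2 fold change -0.54 ± 0.080 (SE), adjusted p = 1.17e-06, edgeR). The groups lay far apart relative to their spread. Ndufs1, the largest core subunit, with iron-sulfur clusters in the NADH module, had 55.6, 60.2 and 57.3 CPM in SEN medium, against 74.0, 71.7 and 66.0 CPM in CON medium (log2 fold change -0.29 ± 0.052 (SE), adjusted p = 2.08e-05, edgeR). The groups did not overlap, and the call held in all 18 alternatives. Ndufv1, the core subunit that binds NADH and flavin, had 48.6, 48.5 and 50.5 CPM in SEN medium, against 53.0, 47.3 and 46.2 CPM in CON medium, and the groups overlapped (log2 fold change 0.012 ± 0.057 (SE), adjusted p = 0.88, edgeR). The 22 nuclear complex I members that were not called, Ndufv1 among them, had log2 fold changes of -0.11 (Ndufs8) to 0.29 (Ndufa12).

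Of the 12 complex I members called higher, 6 stayed past the threshold in all 18 alternatives (Ndufa6, Ndufa7, Ndufa13, Ndufb6, Ndufb9 and Ndufv3). Ndufa8, Ndufa9, Ndufb8, Ndufs3, Ndufs6 and Ndufs7 did so in 7 to 14 of them. The count of 12 became 19 without CON library 1, 6 without CON library 2, 7 without CON library 3, 8 without SEN library 1 and 8 without SEN library 3, 6 with library totals alone and 7 with the trends on GC content and length removed.

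Complex II, which oxidizes succinate in the TCA cycle and has no subunit encoded in the mitochondrion, gave opposite calls for a pair of its 4 subunits. Sdha, the flavoprotein that holds the catalytic site, had 154, 150.0 and 153 CPM in SEN medium, against 192, 184 and 183 CPM in CON medium (log2 fold change -0.29 ± 0.037 (SE), adjusted p = 1.18e-07, edgeR). The SEN libraries lay within a narrow range below all CON libraries. Sdhc, one of the membrane anchors, had 127, 124 and 126 CPM in SEN medium, against 113, 109 and 110.4 CPM in CON medium (log2 fold change 0.18 ± 0.040 (SE), adjusted p = 3.23e-04, edgeR), with all SEN libraries above all CON libraries. Both calls held in all 18 alternatives. The iron-sulfur subunit Sdhb had 62.8, 56.7 and 54.9 CPM in SEN medium, against 58.7, 64.9 and 59.8 CPM in CON medium (log2 fold change -0.076 ± 0.056 (SE), adjusted p = 0.27, edgeR), and the groups overlapped. Sdhd, the other anchor, had 76.4, 72.8 and 74.0 CPM in SEN medium, against 69.7, 70.9 and 71.1 CPM in CON medium (log2 fold change 0.077 ± 0.046 (SE), adjusted p = 0.17, edgeR). It was not called, although its groups did not overlap.

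In complex III all 4 nuclear catalytic and core proteins were called lower and none of the 5 small subunits was, while 2 of the small subunits were called higher. The principal transcripts of the core proteins have 1363 to 1896 bases and those of the small subunits 405 to 547 bases. Role and transcript length therefore cannot be told apart by these counts. The core proteins had a median log2 fold change of -0.15 and the small subunits one of 0.036. Uqcrfs1, the Rieske iron-sulfur protein, had 66.1, 60.1 and 64.8 CPM in SEN medium, against 75.7, 72.2 and 69.6 CPM in CON medium (log2 fold change -0.19 ± 0.050 (SE), adjusted p = 0.00276, edgeR). Cyc1, cytochrome c1, had 52.9, 56.6 and 47.6 CPM in SEN medium, against 60.4, 58.0 and 57.0 CPM in CON medium (log2 fold change -0.16 ± 0.057 (SE), adjusted p = 0.0205, edgeR). The differences were a small share of the level, but all SEN libraries lay below all CON libraries for both. Uqcrc2, a core protein of the matrix side, had 62.0, 59.0 and 60.3 CPM in SEN medium, against 70.04, 63.3 and 66.5 CPM in CON medium (log2 fold change -0.14 ± 0.050 (SE), adjusted p = 0.0224, edgeR). Its partner Uqcrc1 had 120.4, 118 and 111 CPM in SEN medium, against 129, 128 and 123 CPM in CON medium (log2 fold change -0.12 ± 0.041 (SE), adjusted p = 0.0156, edgeR). No SEN library reached a CON library in either, and 19.7% of the exon bases of Uqcrc2 are covered by Pdzd9 on the opposite strand.

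Among the 4 core proteins Uqcrfs1 held its call in all 18 alternatives. Cyc1 lost it with DESeq2 and without SEN library 3 or CON library 1, with adjusted p of 6.61e-04 to 0.206. Uqcrc2 lost it with DESeq2, with the trends on GC content and length removed (with and without the replicate block), and without SEN library 2, SEN library 3 or CON library 1, with adjusted p of 6.55e-04 to 0.097. Uqcrc1 lost it without SEN library 3 or CON library 2. The count of 4 lower became 1 without SEN library 3, 2 without CON library 1 and 2 with DESeq2.

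Uqcrq, a small subunit next to cytochrome b, had 100.3, 101 and 109.7 CPM in SEN medium, against 83.4, 75.0 and 71.7 CPM in CON medium (log2 fold change 0.43 ± 0.051 (SE), adjusted p = 6.07e-08, edgeR). Uqcr11, a very small membrane subunit, had 29.0, 30.3 and 37.1 CPM in SEN medium, against 27.1, 23.3 and 20.6 CPM in CON medium (log2 fold change 0.44 ± 0.11 (SE), adjusted p = 0.00542, edgeR). All SEN libraries lay above all CON libraries in both, and both calls held in every one of the 18 alternatives. Uqcr10, Uqcrb and Uqcrh were not called, with log2 fold changes of -0.051 to 0.036. Cycs, the somatic cytochrome c that carries electrons from complex III to complex IV, had 24.1, 27.0 and 28.4 CPM in SEN medium, against 27.2, 26.7 and 31.0 CPM in CON medium, with overlapping groups (log2 fold change -0.093 ± 0.075 (SE), adjusted p = 0.322, edgeR).

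Nuclear complex IV members were called higher in 10 of 16 cases, and none was called lower. Cox4i1, the widely expressed form of the largest nuclear subunit, had 233, 230.4 and 235 CPM in SEN medium, against 214, 203 and 182 CPM in CON medium (log2 fold change 0.22 ± 0.044 (SE), adjusted p = 1.42e-04, edgeR). Cox5b, a zinc-binding subunit on the matrix side, had 39.8, 42.1 and 48.3 CPM in SEN medium, against 34.7, 28.8 and 29.3 CPM in CON medium (log2 fold change 0.49 ± 0.078 (SE), adjusted p = 2.53e-05, edgeR). Cox8a, a small membrane subunit, had 122, 128 and 134 CPM in SEN medium, against 111, 95.7 and 99.2 CPM in CON medium (log2 fold change 0.33 ± 0.050 (SE), adjusted p = 5.73e-06, edgeR). In all 3 the lowest SEN library lay above the highest CON library. Cox7a2l, a relative of Cox7a2 that takes part in joining complexes III and IV into supercomplexes, had 141, 138 and 134 CPM in SEN medium, against 128, 116 and 112 CPM in CON medium (log2 fold change 0.22 ± 0.045 (SE), adjusted p = 1.54e-04, edgeR). Cox6b1, on the intermembrane side, had 75.4, 75.2 and 80.9 CPM in SEN medium, against 75.1, 64.3 and 70.9 CPM in CON medium (log2 fold change 0.14 ± 0.053 (SE), adjusted p = 0.0264, edgeR). Cox7a2, the liver-type form of subunit 7A, had 46.8, 40.9 and 46.2 CPM in SEN medium, against 42.0, 41.1 and 36.8 CPM in CON medium (log2 fold change 0.16 ± 0.063 (SE), adjusted p = 0.0371, edgeR), and SEN library 2 lay below CON libraries 1 and 2.

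Cox6b1 lost its call with DESeq2, with library totals alone, with the trends on GC content and length removed (with and without the block), and without SEN library 3 or CON library 2 (adjusted p 0.00246 to 0.386 over the 18 alternatives). Cox7a2 lost it with the same 4 settings and without SEN library 1, SEN library 3 or CON library 3 (adjusted p 0.0108 to 0.325), and Cox6c did so under the same 7 alternatives as Cox7a2. The other 7 higher calls held wherever the member could be tested. Cox5a, which forms the matrix side of the complex with Cox5b, had 47.6, 49.6 and 45.5 CPM in SEN medium, against 50.3, 46.5 and 48.9 CPM in CON medium (log2 fold change -0.029 ± 0.055 (SE), adjusted p = 0.699, edgeR). Its groups overlapped, and Cox7b, Cox7c, Cox6a1 and Ndufa4 were also not called.

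Ndufa4l2 had the highest fold change of the members that reached 5 CPM. Its product is a relative of Ndufa4, which was first counted to complex I and is now placed in complex IV, and it is known as a hypoxia-inducible gene. Ndufa4l2 had 92.2, 96.4 and 82.5 CPM in SEN medium, against 22.1, 14.6 and 15.1 CPM in CON medium (log2 fold change 2.40 ± 0.16 (SE), adjusted p = 1.37e-04, edgeR), the 27th highest fold change of the 14644 genes tested. The lowest SEN library lay well above the highest CON library, and the log2 fold change was 2.28 to 2.60 over the 18 alternatives. Ndufa4 itself had 64.0, 65.6 and 66.8 CPM in SEN medium, against 67.8, 61.3 and 63.1 CPM in CON medium, with overlapping groups (log2 fold change 0.032 ± 0.050 (SE), adjusted p = 0.621, edgeR). Per length, Ndufa4l2 made up 41.1%, 41.6% and 37.4% of the sum of both genes in SEN medium, against 13.6%, 10.3% and 10.4% in CON medium.

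Cox6a2, the heart and skeletal muscle form of subunit 6A, had the highest fold change of all 14644 genes tested, but from few reads. It passed the expression filter through its SEN libraries alone, because its CON counts were too low. Its rank, call and lack of overlap are therefore partly set by that filter and are given as a description. It had 16, 15 and 13 counts in SEN medium, against 1, 1 and 0 counts in CON medium (log2 fold change 4.15 ± 0.77 (SE), adjusted p = 3.55e-05, edgeR). Scaled by library size, its 44 counts in SEN medium and 2 in CON medium give a ratio of 20.8, with an exact 95% interval of 5.44 to 177 that covers counting error only. The groups did not overlap, and the log2 fold change was 3.69 to 4.54 over the 17 alternatives in which it could be tested. A filter of at least 1 CPM in 3 libraries left it out. The widely expressed form Cox6a1 had 166, 160.3 and 179 CPM in SEN medium, against 181, 157 and 169 CPM in CON medium (log2 fold change -0.004 ± 0.050 (SE), adjusted p = 0.955, edgeR), so Cox6a2 made up 0.365% ± 0.065 of the pair per length in SEN medium and 0.0169% ± 0.0147 in CON medium (SD, n = 3 each). Of the 2 muscle markers tested, Des had 5.15 ± 0.772 CPM in SEN medium and 1.62 ± 0.245 CPM in CON medium (SD, n = 3 each) and Acta1 had 13.8 ± 0.612 CPM in SEN medium and 8.49 ± 1.02 CPM in CON medium (SD, n = 3 each). Des was also in the list of pericyte and smooth muscle markers. Cox7a1, another muscle form, had a mean of 0.251 CPM in SEN medium and 0.362 CPM in CON medium and was not tested. The part of muscle-type RNA in the Cox6a2 result was not tested. Exons of Itgad on the opposite strand cover 10.3% of the exon bases of Cox6a2.

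The remaining isoform sets gave smaller differences. Cox6b2, known as the testis form of subunit 6B, had 7.87, 6.23 and 6.83 CPM in SEN medium, against 6.03, 4.06 and 4.05 CPM in CON medium (log2 fold change 0.58 ± 0.16 (SE), adjusted p = 0.00314, edgeR), with every SEN library above every CON library. It made up 9.19% ± 1.10 of the Cox6b1 and Cox6b2 pair per length in SEN medium and 6.94% ± 1.16 in CON medium (SD, n = 3 each). Cox4i2, known as the lung form of subunit 4, had 1.30, 2.24 and 1.92 CPM in SEN medium, against 1.75, 1.61 and 2.25 CPM in CON medium, and its groups overlapped (log2 fold change -0.039 ± 0.27 (SE), adjusted p = 0.917, edgeR). Cox7a1, the heart and skeletal muscle form of subunit 7A, had 0.336, 0.320 and 0.0962 CPM in SEN medium, against 0.338, 0.184 and 0.562 CPM in CON medium and was not tested.

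**Figure D3:**
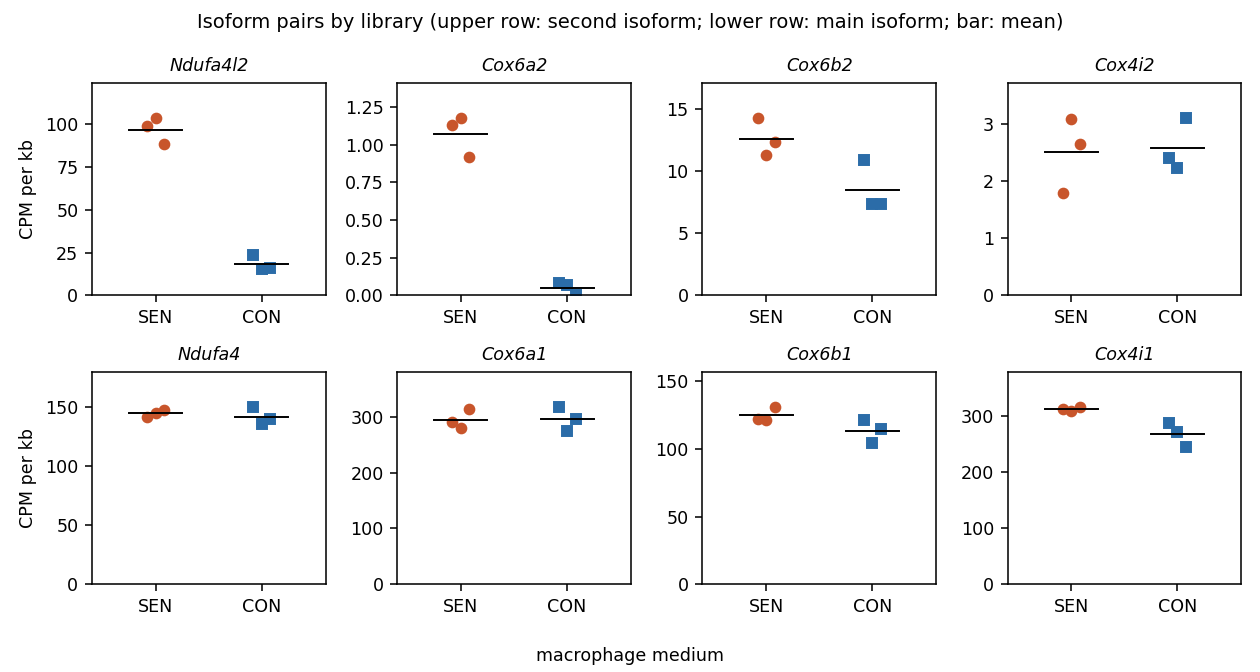
Level per length (CPM per 1000 bases) of the second isoform (upper panels) and the main isoform (lower panels) of 4 pairs, one point per library with SEN medium left of CON medium and a bar at the mean. Ndufa4l2, Cox6a2 and Cox6b2 have all SEN points above all CON points, while Ndufa4, Cox6a1 and Cox4i2 overlap.

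In complex V, F1 (the catalytic head with the central stalk) and Fo (the membrane part with the outer stalk) showed no common direction. Of 5 F1 subunits 2 of the central stalk were called higher (Atp5c1 and Atp5d) and 1 of the head was called lower (Atp5b). The head subunits Atp5a1 and Atp5b both had log2 fold changes below 0, and Atp5e of the central stalk was not called. Of 11 Fo and outer stalk subunits 0 were called higher and 2 lower. Atp5b, the catalytic beta subunit, had the highest level per length of all nuclear members, at 359 CPM per 1000 bases in SEN medium and 385 in CON medium. It had 686, 668 and 708 CPM in SEN medium, against 758, 720.2 and 736 CPM in CON medium (log2 fold change -0.10 ± 0.034 (SE), adjusted p = 0.0119, edgeR). The alpha subunit Atp5a1 had 416, 407 and 420.4 CPM in SEN medium, against 450.0, 428 and 436 CPM in CON medium (log2 fold change -0.079 ± 0.034 (SE), adjusted p = 0.0522, edgeR). The groups did not overlap for either, but Atp5a1 missed the threshold, and Atp5b missed it without SEN library 2. Atp5d, the delta subunit of the central stalk, had 151, 154 and 156 CPM in SEN medium, against 145, 122 and 125 CPM in CON medium (log2 fold change 0.23 ± 0.052 (SE), adjusted p = 9.63e-04, edgeR). The gamma subunit Atp5c1 had 92.2, 89.8 and 90.8 CPM in SEN medium, against 84.3, 81.3 and 77.8 CPM in CON medium (log2 fold change 0.16 ± 0.045 (SE), adjusted p = 0.00275, edgeR). Both had all SEN libraries above all CON libraries, and Atp5c1 lost its call with library totals alone.

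Atp5f1, subunit b of the outer stalk, had 121, 116 and 116 CPM in SEN medium, against 139, 138 and 138 CPM in CON medium (log2 fold change -0.23 ± 0.039 (SE), adjusted p = 9.88e-06, edgeR). The groups lay apart, and the call held in all 18 alternatives. Atp5s, known as factor B or coupling factor B, had 8.74, 8.20 and 7.93 CPM in SEN medium, against 6.48, 5.44 and 6.52 CPM in CON medium (log2 fold change 0.44 ± 0.13 (SE), adjusted p = 0.00542, edgeR), again in all alternatives. The proton-carrying c subunit is made from 3 genes that encode the same mature protein. Atp5g3 had 116, 105 and 110.0 CPM in SEN medium, against 123, 114 and 111 CPM in CON medium (log2 fold change -0.073 ± 0.045 (SE), adjusted p = 0.183, edgeR). Atp5g1 had 20.5, 17.4 and 20.5 CPM in SEN medium, against 20.9, 21.0 and 17.4 CPM in CON medium (log2 fold change -0.020 ± 0.088 (SE), adjusted p = 0.868, edgeR). Neither was called, and together they made up nearly all c-subunit RNA, with a per-length share of 84.0% ± 0.685 for Atp5g3 in SEN medium and 83.9% ± 1.07 in CON medium (SD, n = 3 each).

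Atp5g2, the third c-subunit gene, had 0.624, 0.586 and 0.433 CPM in SEN medium, against 1.35, 1.06 and 0.956 CPM in CON medium, which corresponds to 13, 11 and 9 counts in SEN medium and 24, 23 and 17 counts in CON medium (log2 fold change -1.03 ± 0.38 (SE), adjusted p = 0.026, edgeR). All SEN libraries lay below all CON libraries. Its share of the 3 genes was 0.676% ± 0.126 in SEN medium and 1.31% ± 0.164 in CON medium (SD, n = 3 each), and the call was lost with DESeq2 and without SEN library 2, SEN library 3, CON library 1 or CON library 2 (adjusted p 0.0136 to 0.106 over the 17 alternatives in which it was tested). The 11 complex V members that were not called had log2 fold changes of -0.079 (Atp5a1) to 0.22 (Atp5k). The complex V counts of 3 higher and 3 lower became 5 higher and 2 lower without CON library 1, 3 higher and 1 lower without SEN library 2, and 3 higher and 2 lower without SEN library 3, and 7 were called lower with library totals alone.

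**Figure D4:**
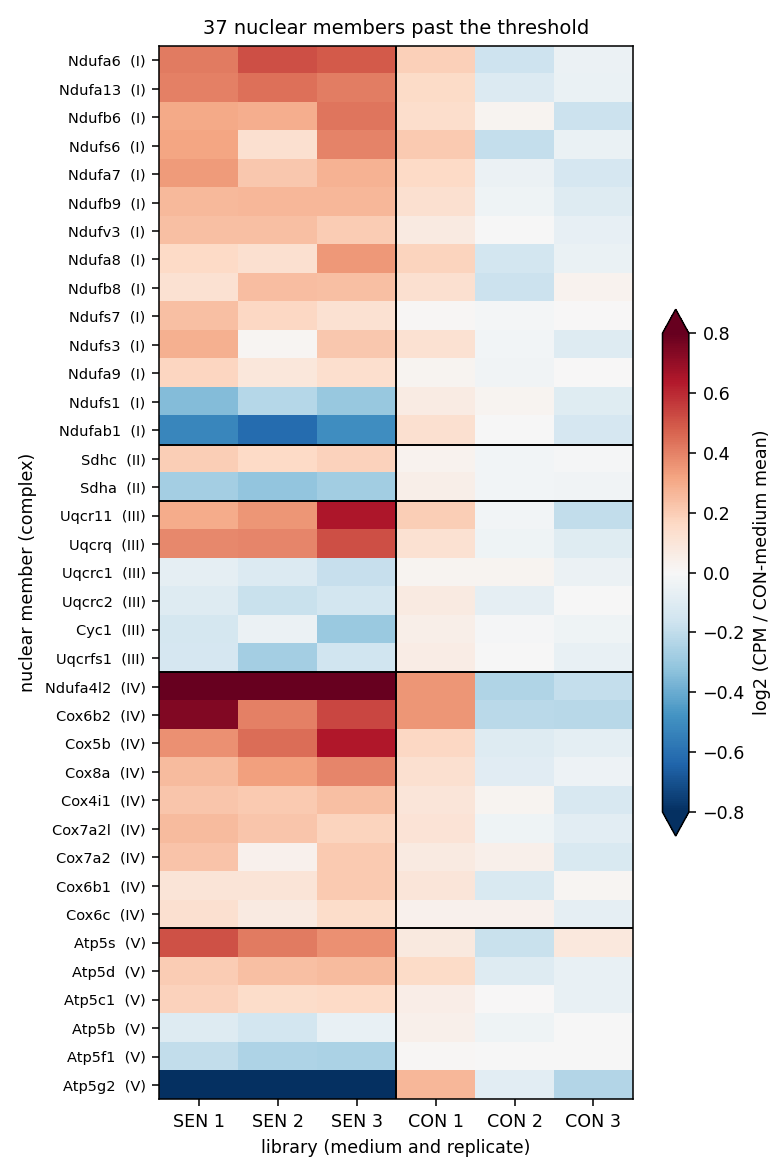
Log2 of CPM over the CON-medium mean in the 6 libraries (columns, SEN left of CON) for 37 nuclear members called higher or lower (rows, by complex), without Cox6a2, which had 0 counts in a CON library; the colours saturate at the ends of the scale. CON library 1 lies between the SEN libraries and the other CON libraries for many members called higher, and Ndufa4l2 and Atp5g2 show the strongest colours.

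The 13 protein genes of the mitochondrial genome were called higher in 7 cases and lower in 3, with log2 fold changes of -0.16 (mt-Co2) to 0.47 (mt-Nd6). The higher calls were 5 complex I genes, cytochrome b and the catalytic subunit of complex IV, and all 7 held in all 18 alternatives. mt-Nd6, the one protein gene read from the light strand, had 569, 592 and 574 CPM in SEN medium, against 423, 406 and 427 CPM in CON medium (log2 fold change 0.47 ± 0.034 (SE), adjusted p = 5.04e-13, edgeR). mt-Nd5, a proton-pumping subunit of complex I, had 3106, 3254 and 3101 CPM in SEN medium, against 2134, 2350.1 and 2436 CPM in CON medium (log2 fold change 0.45 ± 0.040 (SE), adjusted p = 1.40e-09, edgeR). mt-Nd4, another such subunit, had 3164, 3268 and 3225 CPM in SEN medium, against 2385, 2556 and 2789 CPM in CON medium (log2 fold change 0.32 ± 0.043 (SE), adjusted p = 6.47e-06, edgeR). For these 3 all SEN libraries lay above all CON libraries, and the CON libraries spread more widely than the SEN libraries for mt-Nd4 and mt-Nd5. mt-Nd4l, a small membrane subunit of complex I, had 191, 195 and 198 CPM in SEN medium, against 180.0, 155 and 152 CPM in CON medium (log2 fold change 0.26 ± 0.051 (SE), adjusted p = 3.74e-04, edgeR), and mt-Nd4l and mt-Nd4 overlap by 7 bases. mt-Nd2, a further core membrane subunit, had 1152, 1136 and 1173 CPM in SEN medium, against 941, 943 and 1036 CPM in CON medium (log2 fold change 0.24 ± 0.036 (SE), adjusted p = 1.14e-06, edgeR). Without strand, reads of mt-Nd6 and of RNA from the opposite strand, where mt-Nd5 overlaps it by 14 bases, cannot be told apart.

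mt-Co1, the catalytic subunit of cytochrome c oxidase, had the highest level of all members per length, 8144 CPM per 1000 bases in SEN medium and 6719 in CON medium. It had 12702, 12519 and 12529 CPM in SEN medium, against 9954, 10615 and 10573 CPM in CON medium (log2 fold change 0.28 ± 0.034 (SE), adjusted p = 4.20e-08, edgeR). mt-Cytb, the only mitochondrially encoded subunit of complex III, had 3353, 3420.4 and 3458 CPM in SEN medium, against 2769, 2973 and 3099 CPM in CON medium (log2 fold change 0.21 ± 0.036 (SE), adjusted p = 1.43e-05, edgeR). In both, every SEN library lay above every CON library. The nuclear complex III core proteins, called lower, and mt-Cytb, called higher, thus had opposite signs.

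mt-Nd1, the first protein gene after the ribosomal RNAs, was called lower: it had 1642, 1685 and 1664 CPM in SEN medium, against 1751, 1784 and 1909 CPM in CON medium (log2 fold change -0.12 ± 0.034 (SE), adjusted p = 0.00295, edgeR). mt-Co2, which receives electrons from cytochrome c, had 1305, 1335 and 1259 CPM in SEN medium, against 1343, 1479 and 1521 CPM in CON medium (log2 fold change -0.16 ± 0.039 (SE), adjusted p = 0.00177, edgeR). The groups did not overlap for mt-Nd1 or mt-Co2. mt-Atp6, the proton channel subunit of ATP synthase, had 1306, 1323 and 1280.1 CPM in SEN medium, against 1315, 1396 and 1442 CPM in CON medium, and its groups overlapped (log2 fold change -0.088 ± 0.034 (SE), adjusted p = 0.0349, edgeR). None of these 3 lower calls held in all 18 alternatives. That of mt-Nd1 was lost without CON library 3 (adjusted p 1.19e-05 to 0.0503 over the alternatives), and that of mt-Co2 with the trends on GC content and length removed, with or without the block (adjusted p 2.52e-07 to 0.137). That of mt-Atp6 was lost under those settings, with upper-quartile factors, and without any one of the SEN libraries, CON library 2 or CON library 3 (adjusted p 1.27e-04 to 0.22). The count of 3 lower became 1 without CON library 3, and 2 without CON library 2 or any one SEN library.

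mt-Co3, another core subunit of complex IV, had 1422, 1353 and 1367 CPM in SEN medium, against 1361, 1380.3 and 1419.7 CPM in CON medium (log2 fold change -0.0063 ± 0.033 (SE), adjusted p = 0.891, edgeR). The groups overlapped. mt-Nd3, a small core subunit of complex I, had 52.6, 60.4 and 58.1 CPM in SEN medium, against 61.3, 49.6 and 46.8 CPM in CON medium (log2 fold change 0.12 ± 0.10 (SE), adjusted p = 0.383, edgeR). mt-Atp8, which shares 43 of its 204 bases with mt-Atp6, had 7.73, 8.04 and 8.99 CPM in SEN medium, against 10.5, 6.69 and 7.37 CPM in CON medium (log2 fold change 0.020 ± 0.14 (SE), adjusted p = 0.922, edgeR). Neither was called, and mt-Atp8 had the lowest level of the mitochondrial genes.

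Along the genome the order of the 13 genes is mt-Nd1, mt-Nd2, mt-Co1, mt-Co2, mt-Atp8, mt-Atp6, mt-Co3, mt-Nd3, mt-Nd4l, mt-Nd4, mt-Nd5, mt-Nd6 and mt-Cytb. The stretch from mt-Co2 to mt-Nd3 held no higher call, whereas all genes from mt-Nd4l to mt-Cytb were called higher, together with mt-Nd2 and mt-Co1. This is a description of the order, with no test, and the stretch was chosen after its values were seen.

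**Figure D5:**
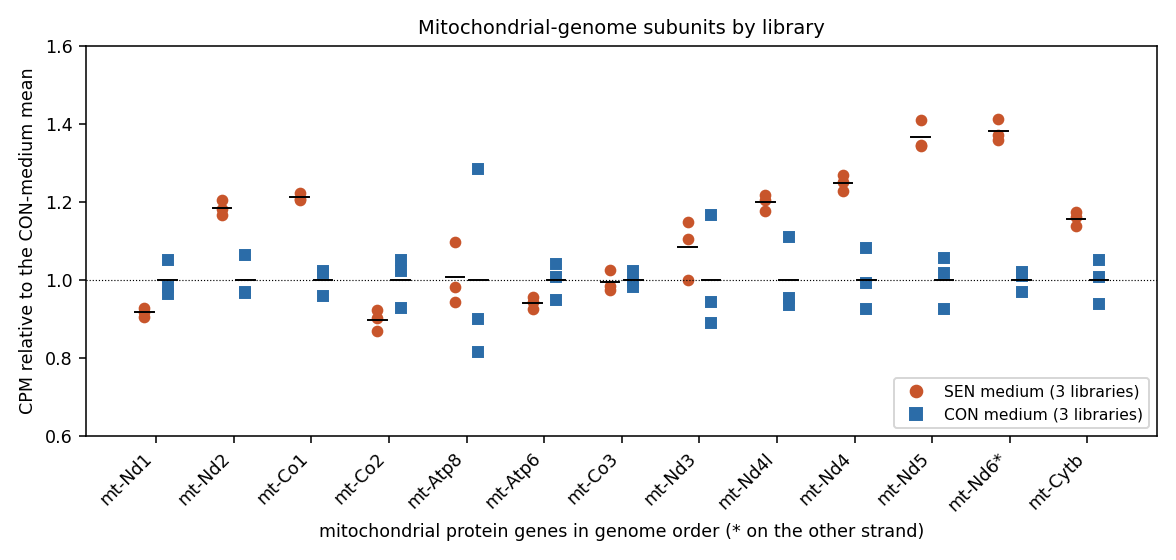
CPM of the 13 mitochondrial protein genes in each library, divided by the gene's CON-medium mean, in genome order, with SEN libraries left of CON libraries, bars at the means and a y axis that does not start at 0. From mt-Nd4l to mt-Cytb all SEN points lie above all CON points, while for mt-Nd1 and mt-Co2 they lie below.

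The 13 mitochondrial protein genes together held 2.92% ± 0.0329 of all counts in SEN medium and 2.66% ± 0.118 in CON medium (SD, n = 3 each). Per library the shares were 2.88%, 2.91% and 2.95% in SEN medium, against 2.54%, 2.67% and 2.77% in CON medium, so that the groups did not overlap. The nuclear members held 0.527%, 0.519% and 0.545% in SEN medium, against 0.574%, 0.527% and 0.523% in CON medium, with overlap. Summed CPM of the mitochondrial genes was 5.50 ± 0.109 times that of the nuclear members in SEN medium and 4.93 ± 0.453 times in CON medium (SD, n = 3 each). By library the ratios were 5.47, 5.62 and 5.41 in SEN medium, against 4.42, 5.06 and 5.30 in CON medium. CON library 1 was the lowest, and CON library 3 lay close to the SEN libraries. No test was made on these sums. Per length 11 of the 13 mitochondrial genes had higher levels than any nuclear member in SEN medium.

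Genes around the complexes were described by their counts in lists, beside 24.6% higher and 24.9% lower over all genes. Here and in the following lists, medians and values given without a unit are log2 fold changes. Assembly factors of complex I were called higher in 4 and lower in 4 of 15 cases, with Ndufaf7 at a log2 fold change of 0.38 and Ndufaf2 at -0.51. For complex II it was 0 higher and 1 lower of 4 (Sdhaf3, -0.52), for complex III 1 higher (Lyrm7, 0.51) and 1 lower (Uqcc2, -0.19) of 6, and for complex V 2 higher and 1 lower of 4, among them Tmem242 (0.39) and Tmem70 (-0.32). Complex IV assembly factors were called higher in 8 and lower in 3 of 21 cases, with a median of 0.13. Higd1a, a hypoxia-inducible protein that binds complex IV, led them with 66.9 ± 2.29 CPM in SEN medium and 26.5 ± 2.28 CPM in CON medium (SD, n = 3 each) (log2 fold change 1.34 ± 0.061 (SE), adjusted p = 7.98e-18, edgeR), and the heme A synthase Cox15 was higher by 0.46.

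Genes of mitochondrial DNA maintenance and transcription were called higher in 7 and lower in 3 of 20 cases, with Tk2, a mitochondrial thymidine kinase, at 0.66 and Polrmt, the mitochondrial RNA polymerase, at -0.55. Regulators of mitochondrial biogenesis were called higher in 0 and lower in 3 of 15 cases, among them Pprc1 (-0.31) and Yy1 (-0.12). TCA cycle genes were called higher in 2 and lower in 7 of 13 cases, with a median of -0.15, among them Ogdh (-0.27) and Sucla2 (-0.31). Genes of pyruvate entry gave 5 higher and 3 lower of 13. Pdk1, a kinase that inhibits pyruvate dehydrogenase, had 93.7 ± 0.674 CPM in SEN medium and 37.9 ± 1.05 CPM in CON medium (SD, n = 3 each) (log2 fold change 1.30 ± 0.049 (SE), adjusted p = 7.34e-20, edgeR), and its relative Pdk4 was lower, at -0.75. Coenzyme Q genes and other electron donors gave 6 higher and 3 lower of 19, with Etfdh at -0.66 and Sqor at 0.64. Genes of heme, iron-sulfur and copper supply gave 3 higher and 6 lower of 18, with Alas1, the first enzyme of heme synthesis, at -0.63 and the scaffold Iscu at -0.35.

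Exchange of ADP, ATP and phosphate and uncoupling gave 4 higher and 3 lower of 9 (Vdac1 0.43, Ucp2 -1.04), and mitochondrial import 9 higher and 6 lower of 22 (Tomm20 -0.38, Tomm34 0.67). Genes of cristae and inner membrane shape gave 5 higher and 2 lower of 14 (Minos1 0.27, 2410015M20Rik 0.38). Mitochondrial chaperones and proteases, with the stress factor Atf5 in the list, gave 8 higher and 3 lower of 13. Atf5 had 607 ± 15.2 CPM in SEN medium and 212 ± 7.48 CPM in CON medium (SD, n = 3 each) (log2 fold change 1.52 ± 0.036 (SE), adjusted p = 6.48e-25, edgeR), and the protease Spg7 was lower, at -0.40. Mitophagy genes gave 4 higher and 2 lower of 11. Bnip3, a hypoxia-inducible mitophagy receptor, had 161 ± 4.24 CPM in SEN medium and 68.3 ± 2.14 CPM in CON medium (SD, n = 3 each) (log2 fold change 1.24 ± 0.042 (SE), adjusted p = 6.11e-21, edgeR), and its relative Bnip3l was higher by 0.19. Higd1a, Pdk1, Atf5 and Bnip3 differed by more than 2-fold, a size that among the subunits of the complexes only Cox6a2, Ndufa4l2 and Atp5g2 reached.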

How the data were processed

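Bulk RNA was sequenced from mesenchymal stem cells in 2 media, 3 libraries each, with paired reads of 150 bp from about 600 ng of RNA, per the labels' protocols. The authors deposited a table of estimated counts per Ensembl gene, not normalized, with at least 10 counts per gene summed over the 6 libraries. STAR, DESeq2 and mm39 are named per the submitters' processing notes. Which tool counted reads, with which annotation and whether by strand is not given in the sources used here. In each library 70.3% to 72.8% of the estimated counts were within 0.01 of whole numbers, and all were rounded before testing.

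Symbols, transcript lengths and exon overlaps came from GENCODE M21 (build GRCm38), matched by identifier for 18092 of 18124 genes (99.8%). The length is that of a principal transcript. Promoters came from RefSeq for GRCm38.p6. The whole table was tested with the two-sided quasi-likelihood F-test of edgeR 4.0.16 in R 4.3.3 (robust, TMM factors, edgeR's expression filter, medium as the only term), with Benjamini-Hochberg adjustment over 14644 genes. The SE was derived from F, as the size of the log2 fold change over the root of F. Medians over libraries used log2 of CPM with 0.1 added. Before use the test was run on simulated counts in which only a small share of genes changed. That run does not check the scaling where as many genes differ as here.

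Alternatives were DESeq2 1.42.0, limma-voom (limma 3.58.1), other scalings, filters and a threshold of 0.01, the replicate number as a block, offsets for GC content and length, and each library left out. Scaling without the most abundant feature was added after seeing the data. The members, the 16 pathway lists, the 6 marker lists and the tests were chosen with earlier results of these data known. Pericyte and smooth muscle markers were called higher in 3 and lower in 3 of 9 cases, endothelial markers in 1 and 0 of 2, and adipocyte markers in 0 and 3 of 3. Members named with values are the mitochondrial genes, complex II, cytochrome c, the isoform sets, the catalytic core subunits and, for complexes I, III, IV and V, the 3 largest rises and 3 largest falls among called members that reached 5 CPM in the higher group; of each pathway list, the 2 with the smallest adjusted p. Uqcrc1, the markers and members named only for a lost call, an overlap or a range end were added after their values were seen. A called member that the rule would name is not reported here.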

Additional observations from a re-analysis of the deposited data

How the results depend on the processing

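Counts, medians and named members were recomputed under DESeq2, limma-voom, other scalings, 2 other filters, offsets for GC content and length, the replicate block, a stricter threshold and with each library left out. Of 344 recomputed counts and medians 312 fell within a tolerance around the value reported, but that tolerance was wide. It took in 20 nuclear members higher with the GC and length offsets and 39 without CON library 1, against 28 reported. It also took in a nuclear median of 0.047 with those offsets, against 0.11 reported. Being within it therefore does not mean that a count or median was stable. At an adjusted p under 0.01, 7 members were lower, 5 of them nuclear, with 6 higher in complex I, 1 lower in complex III and 1 lower in complex V. With DESeq2 7 nuclear members were lower, 2 of them in complex III. With library totals alone 18 nuclear members were higher, with 6 higher in complex I, 2 lower in complex II and 7 lower in complex V, and medians of 0.029 for nuclear and 0.13 for mitochondrial members. With the GC and length offsets 1 mitochondrial gene was lower, 7 complex I members were higher and 6 complex V members lower; with the replicate block added, 1 mitochondrial gene, 1 complex IV member and 6 complex V members were lower. Leaving out each library gave 9 to 13 members lower, 7 to 12 nuclear members lower, 1 to 3 mitochondrial genes lower, 6 to 19 complex I members higher, 1 to 4 complex III members lower, and 3 to 5 higher and 1 to 3 lower in complex V. The replicate block alone gave 28 nuclear members higher and 12 lower. Replicate numbers did not pair the samples (correlations of same-numbered deviations of 0.019, 0.0019 and 0.026).

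Named members whose log2 fold change changed sign were not past the threshold in the edgeR fit reported. Cox6a1 had 0.016 and mt-Co3 0.013 with upper-quartile factors; Ndufa4 had -0.049, Ndufv1 -0.069, Sdhd -0.0043 and mt-Atp8 -0.061 with library totals alone. With the GC and length offsets Ndufa4 had -0.0016, Ndufv1 -0.0051 and mt-Co3 0.011, and with the block added -0.0024, -0.0052 and 0.011. Without each library the ranges were -0.10 to 0.054 for Atp5g1, -0.21 to 0.16 for Cox4i2, -0.061 to 0.0040 for Cox5a, -0.057 to 0.046 for Cox6a1, -0.00022 to 0.072 for Ndufa4, -0.026 to 0.070 for Ndufv1, -0.12 to 0.23 for mt-Atp8 and -0.027 to 0.0097 for mt-Co3. The cause was not tested. Counts of 0 to 24 a library limit Cox6a2 and Atp5g2.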
